A study of Mus musculus with 16 samples.

Results

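Hair follicle stem cells (HFSC) from mice with a conditional knockout of aPKCλ, an isoform of atypical protein kinase C (aPKC), were compared with control HFSC in young mice. The comparison holds 4 of the 16 microarrays of a study of how these cells divide in regeneration and aging, and its members are the arrays labelled aPKC cKO tHFSC, aPKC cKO aHFSC, control tHFSC and control aHFSC. The mice of these 4 arrays were all 12 weeks old. The control mice are labelled as wild-type C57BL/6 and the knockout mice as aPKCλ flox/flox with K15crePR. That transgene drives a Cre recombinase fused to the progesterone receptor from the keratin 15 promoter, which is active in the follicle bulge, and the ligand RU486 switches it on. Both genotypes are labelled as treated with RU486, which was given topically as 2.5 mg per mouse for 5 days at 8 weeks of age. No Cre or floxed allele is given for the controls, so the knockout differs from the control in the transgene as well as in the deletion. The control aHFSC label adds hair plucking for 3 days, the knockout aHFSC label does not mention plucking, and the labels do not spell out tHFSC and aHFSC. Cells had been sorted as CD34-high, integrin α6-high and Sca1-negative. Their RNA was amplified, labelled with Cy3 and hybridised to 1 Agilent array per group, so no group has a replicate, and the labels do not say whether an array holds 1 animal or a pool. The series holds 4 further HFSC conditions, used below in the fit and for ranks. Young Col17a1 cKO and young hCOL17A1 mice were 12 weeks old, and aged wild-type and aged hCOL17A1 mice 25 to 26 months. RU486 is given for the Col17a1 cKO but not for the hCOL17A1 or aged mice. The aged arrays lie on a second slide.

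Atypical PKC is the kinase of the PAR polarity complex, in which it binds PAR6 and PAR3 and, when activated by Cdc42, phosphorylates substrates such as LGL, NUMB and the PAR1/MARK kinases so that they stay on one side of the cell. In epidermis the complex is known for its part in orienting the mitotic spindle, and so in whether a division keeps both daughters in the stem cell layer. Bulge stem cells are quiescent for most of the hair cycle and divide when a new growth phase starts or hair is plucked, and the comparison asks what their transcripts look like without the kinase.

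Levels are given as log2 of the scanner's processed signal minus the 75th percentile of that array; 0 is the level at that percentile. Differences between genotypes are knockout minus control within a cell state, or, for both states together, the fitted difference ± its standard error (SE) from a limma fit over all 16 arrays with a cell state term (n = 2 arrays per genotype). On the 4 arrays the share of probes flagged as well above background ran from 76.9% to 79.8%. The control tHFSC scanner file ends early, and 9264 of 55681 probes of that array were filled from the authors' deposited value table; genes measured by such a probe are marked below as filled. All 4 arrays lie on 1 slide, with the controls in its row 1 and the knockouts in its row 2, so genotype and slide row cannot be told apart. The correlation across genes between arrays was 0.936 for the 2 control arrays, 0.944 for the 2 knockout arrays, 0.943 for the 2 tHFSC arrays and 0.946 for the 2 aHFSC arrays.

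Prkci, which encodes aPKC lambda, was examined first. Its level was 4.25 on control tHFSC, 4.37 on control aHFSC, 3.44 on knockout tHFSC and 3.28 on knockout aHFSC. Both knockout arrays were below both controls and below the other 8 HFSC arrays of the series. The difference was -0.81 in tHFSC and -1.09 in aHFSC, and -0.95 ± 0.30 over both states (unadjusted p = 0.0126; limma adjusted p = 1 over all genes, not passed). Its probe lies at mm9 chr3:30951503-30951562, and since the labels do not say which exons the loxP sites flank, a transcript that has lost them could still reach this probe. In a bulk sample a smaller share of expressing cells and less RNA per cell cannot be told apart. The measured remainder therefore gives no share of cells in which the gene was deleted.

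The other kinases of the family did not share one direction. Prkcz, the second atypical isoform, was at -0.95 and -2.60 in control tHFSC and aHFSC and at -0.79 and -3.63 in the knockout, a difference of 0.17 in one state and -1.03 in the other. Its 3 probes disagree, and the means over both states of the other probes were -1.96 and 0.08. Prkca, the conventional alpha isoform, was at 1.82 (filled) and 1.15 in the controls and at -0.30 and -1.04 in the knockout. Both knockout arrays were again below every other HFSC array, with a difference of -2.16 ± 0.48 (unadjusted p = 0.00168, adjusted p = 1), while a further Prkca probe gave 0.37 in tHFSC and -1.59 in aHFSC. Prkcd, the delta isoform, which is linked to keratinocyte differentiation, was at 3.33 and 3.16 against 3.66 and 3.66, and its difference of 0.42 ± 0.61 did not pass. Of the 11 measured genes of the family list, which also holds the upstream kinase Pdpk1 and the adaptor Sqstm1, 2 were higher and 3 lower in both states and none passed; of all 31213 gene rows 28.9% were higher and 23.7% lower in both.

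**Figure D1:**
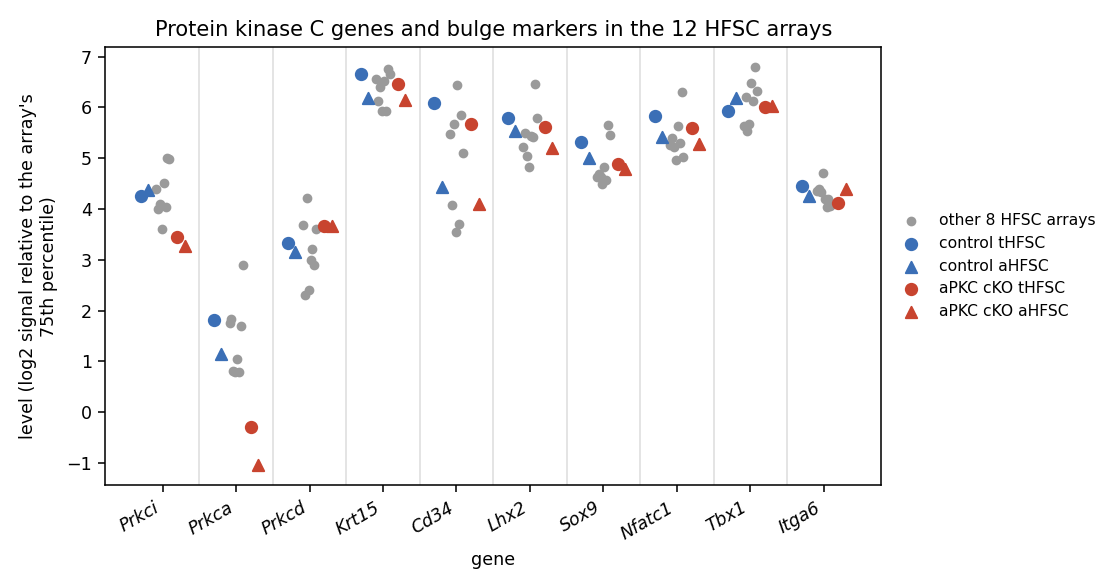
Levels (log2 signal relative to the 75th percentile of each array) of 3 protein kinase C genes and 7 bulge or sort genes on the 12 HFSC arrays; blue marks the 2 control arrays, red the 2 aPKC cKO arrays, circles tHFSC, triangles aHFSC, and grey the other 8 HFSC arrays. Prkci and Prkca lie lowest on the red arrays, whereas Krt15, Lhx2, Sox9, Nfatc1, Tbx1 and Itga6 lie within the range of the other arrays.

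The partners of the kinase did not share one direction. Of 25 genes of the PAR complex and apical-basal polarity list, 24 were measured, 8 were higher in both states, 6 lower in both states and none passed. The list median was 0.04, beside 0.03 over all 31213 gene rows. Pard3, the scaffold PAR3, was at 2.57 and 2.39 in the controls and at 2.65 and 1.40 in the knockout, a difference of 0.084 in tHFSC and -0.99 in aHFSC (-0.45 ± 0.45). Its 3 other probes were also lower in knockout aHFSC, with differences of -0.63, -1.57 and -0.87. Cdc42, the small GTPase that activates the complex, was at 6.17 (filled) and 5.93 against 5.92 and 5.74. Tiam1, an exchange factor for Rac that binds PAR3, was at -0.23 and 0.36 against -0.57 and -0.81, with both knockout arrays below both controls (-0.76 ± 0.43). The substrate kinases went the other way: Mark3 was at 1.91 and 2.20 against 2.49 and 3.23 (0.81 ± 0.46), and Mark2 at 5.00 and 4.89 against 5.22 and 5.43 (0.38 ± 0.22). The knockout arrays were above both controls for each MARK gene, and all of these had an adjusted p of 1. Pard6b was well above background on control aHFSC and on neither knockout array, its control tHFSC value was filled and carries no such flag, and so it has no usable difference here.

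Genes that place the spindle, which act downstream of the polarity complex, did not pass either. Of 18 listed genes 16 were measured, 4 were higher and 7 lower in both states (28.9% and 23.7% of all rows), with a median of -0.14. The cortical anchor Gpsm2 (LGN) was at 1.73 and 1.91 against 1.53 and 1.45, and the dynein adaptor Numa1 at 3.93 and 3.55 against 3.68 and 3.46. Gnai3, the G protein subunit that holds LGN at the membrane, was at 3.51 and 3.34 against 2.68 and 3.31. Afdn, the junctional scaffold afadin, was at -1.26 and -0.80 against -0.26 and -0.01, above both controls on both knockout arrays (0.89 ± 0.47). Dctn1, the large subunit of dynactin, was at 0.39 and 0.37 against 0.93 and 1.19 (0.68 ± 0.42). The levels of LGN, NuMA and G protein transcripts thus lay within 1 log2 unit between genotypes in each state.

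Transcripts that define the bulge were high in both genotypes. Krt15, the keratin whose promoter drives the Cre, was at 6.66 and 6.19 in the controls and at 6.46 and 6.15 in the knockout. Cd34, the surface marker of the sort, was at 6.09 and 4.43 against 5.67 and 4.09, lower in aHFSC of both genotypes. Its second probe was at 5.26 and 2.64 against 3.76 and 3.27, a difference of -1.50 in tHFSC and 0.63 in aHFSC. The transcription factors Lhx2 (5.79 and 5.53 against 5.61 and 5.20), Sox9 (5.33 and 5.00 against 4.88 and 4.78), Nfatc1 (5.83 and 5.42 against 5.59 and 5.28) and Tbx1 (5.92 and 6.19 against 6.01 and 6.02) stood at like levels. Sca1, Ly6a, against which the cells were sorted, was at -1.67 and -2.92 in the controls and at -0.51 and -3.50 in the knockout. Over the 25 listed bulge genes the median was -0.25 in tHFSC and 0.02 in aHFSC. Of these, 4 were higher and 9 lower in both states (28.9% and 23.7% of all rows), and none passed. The gene of that list with the smallest p was Fgf18, a growth factor known to hold the follicle in rest, at 4.24 and 0.22 in the controls and at 2.64 and -2.79 in the knockout (-2.31 ± 1.18, unadjusted p = 0.0841). It was lower in aHFSC than in tHFSC in both genotypes and lower in the knockout in both states, yet the groups overlap, because knockout tHFSC lies above control aHFSC. Bmp6, another factor of quiescence, was at 1.31 and -0.15 in the controls and at -0.22 and 1.48 in the knockout, lower in one state and higher in the other.

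Across the genome no gene passed the test. At an adjusted p under 0.05, limma called 0 of 31213 gene rows (0.0%) for knockout against control, and 1073 rows (3.44%) had an unadjusted p under 0.05. The smallest adjusted p was 0.233, for Arl5c. The test of whether the knockout difference itself was unlike in the 2 cell states also called 0 rows (0.0%), with 1167 rows (3.74%) at an unadjusted p under 0.05. The fit had 1 array per genotype and state and 6 residual degrees of freedom, and the median SE of a difference over all rows was 0.52. All that follows therefore describes these 4 arrays, and no gene below passed.

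The knockout differences of the 2 cell states had almost nothing in common. Their Pearson correlation across all gene rows was 0.02, and 0.04 among the 21278 rows that were well above background on all 4 arrays; genes are not independent replicates, and the 2 differences share no array. Of all rows, 9014 (28.9%) were higher in the knockout in both states and 7404 (23.7%) lower in both. At least 2-fold differences were seen in 3473 rows higher (11.1%) and 2891 lower (9.26%) in tHFSC, and in 2797 higher (8.96%) and 3715 lower (11.9%) in aHFSC. Only a small part of these were the same rows: 632 (2.02%) were at least 2-fold higher in both states and 699 (2.24%) at least 2-fold lower in both, against 797 higher in tHFSC and lower in aHFSC and 430 the other way round. Both knockout arrays lay above both controls in 5901 rows (18.9%) and below both in 4354 (13.9%).

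**Figure D2:**
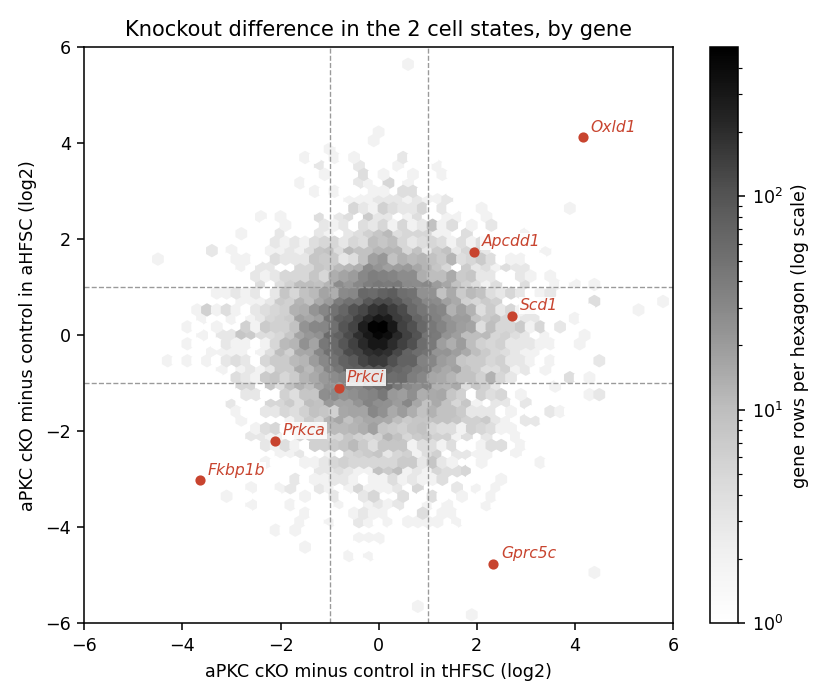
Knockout minus control (log2) in tHFSC (horizontal) against aHFSC (vertical) for the 20322 gene rows with an official symbol; shading gives the number of rows per hexagon on a log scale, dashed lines mark a 2-fold difference, red dots are genes described in the text, and 15 rows lie beyond the axes. The cloud is round rather than drawn out along a diagonal, as the correlation of 0.02 over all 31213 rows also says.

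Most genes of DNA replication and mitosis were lower in the knockout, more so in aHFSC, though no member passed. Of 44 listed cell cycle genes 43 were measured. Of these, 26 were lower in both states and 2 higher in both, beside 23.7% and 28.9% of all rows, and 39 of 43 were lower in aHFSC, where 52.3% of all rows were higher. The list median was -0.17 in tHFSC, -0.89 in aHFSC and -0.58 over both, and none passed (3 lower at an unadjusted p under 0.05, as were 1.87% of all rows). Rrm1, the large subunit of ribonucleotide reductase, was at 0.93 and 2.42 in the controls and at -0.03 and 1.03 in the knockout (-1.18 ± 0.42, unadjusted p = 0.0204). Mcm2, of the replicative helicase, was at -0.20 and 0.18 against -2.05 and -1.52, with both knockout arrays well below both controls (-1.78 ± 0.85). Pcna, the sliding clamp, was at 3.07 and 4.32 against 2.73 and 3.36, where the groups overlap through the higher level of aHFSC (-0.65 ± 0.31). Uhrf1, which carries DNA methylation through replication, was at 3.61 and 5.80 against 3.02 and 4.31 (-1.04 ± 0.43, unadjusted p = 0.0381). A second probe of it was 2.47 higher in knockout tHFSC and lower in knockout aHFSC (-2.44). Rfc4, of the clamp loader, was at -0.14 and 0.37 against -1.58 and -1.12, and its second probe likewise differed in sign, with 0.69 in tHFSC and -0.72 in aHFSC. The proliferation antigen Mki67 was at 2.45 and 4.31 against 1.92 and 3.26, while its second probe was higher in knockout tHFSC (0.52) and lower in knockout aHFSC (-0.67). Cyclin A2, Ccna2, was at -0.28 and 2.32 against -0.86 and 1.11. Some mitotic genes were higher in knockout tHFSC and lower in knockout aHFSC. Kif20a, a kinesin of cytokinesis, was at -2.67 and 2.60 in the controls and at 1.25 and 1.68 in the knockout, and Ube2c, a ubiquitin-conjugating enzyme of mitotic exit, at -1.22 and 3.55 against 1.68 and 2.96. Without the knockout aHFSC array the list median was -0.16, and without the knockout tHFSC array -1.05.

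Cell cycle promoters are known for E2F sites and CCAAT boxes. The promoters of 4 of the cell cycle genes that were lower in both states by the probe used are therefore printed here. They are the 250 bases before the annotated start on the gene's own strand, from RefSeq on build GRCm38.p6, 5′ to 3′, with capitals marking matches on either strand to the letters TTTNNCGC (E2F) or CCAAT. Uhrf1 is at chr17:56303087-56303336 (plus strand; the more upstream of 2 listed starts), Rrm1 at chr7:102441445-102441694 (plus), Pcna at chr2:132253181-132253430 (minus) and Mcm2 at chr6:88898781-88899030 (minus).
Uhrf1: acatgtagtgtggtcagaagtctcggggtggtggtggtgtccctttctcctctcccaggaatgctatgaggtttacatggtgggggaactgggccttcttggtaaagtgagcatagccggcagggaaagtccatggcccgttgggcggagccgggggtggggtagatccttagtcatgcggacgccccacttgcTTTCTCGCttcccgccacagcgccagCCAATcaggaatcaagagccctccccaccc
Rrm1: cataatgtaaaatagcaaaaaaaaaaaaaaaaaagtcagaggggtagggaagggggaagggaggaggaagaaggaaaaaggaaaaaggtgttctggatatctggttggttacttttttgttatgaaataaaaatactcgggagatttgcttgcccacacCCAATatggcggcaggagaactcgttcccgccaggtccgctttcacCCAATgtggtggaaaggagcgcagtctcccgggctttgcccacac
Pcna: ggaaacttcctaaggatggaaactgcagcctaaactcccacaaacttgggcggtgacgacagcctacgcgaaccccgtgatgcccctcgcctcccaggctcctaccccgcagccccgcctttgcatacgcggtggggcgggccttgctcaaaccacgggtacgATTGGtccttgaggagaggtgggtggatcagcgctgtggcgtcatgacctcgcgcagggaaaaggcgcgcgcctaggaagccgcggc
Mcm2: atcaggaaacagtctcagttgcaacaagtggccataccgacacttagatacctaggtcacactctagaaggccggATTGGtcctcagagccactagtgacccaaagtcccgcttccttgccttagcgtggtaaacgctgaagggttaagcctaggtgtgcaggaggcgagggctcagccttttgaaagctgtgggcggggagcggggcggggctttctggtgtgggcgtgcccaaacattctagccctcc
The Uhrf1 stretch holds 1 match to each motif, Rrm1 holds 2 CCAAT matches, and Pcna and Mcm2 hold 1 CCAAT match each. Promoters of 33 of the 43 measured genes were matched, over 300 bases that run from 250 before to 50 after the start. TTTNNCGC occurred in 10 of 33 (30.3%), against 5.93% of 27025 genes with a promoter in the table, and CCAAT in 25 of 33 (75.8%), against 41.1%. Among the 21 matched genes lower in both states the shares were 28.6% and 81.0%, so the genes that were lower were close to their list in this respect. These are matches of letters and not measured binding.

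Set against the other conditions, the cell cycle genes of the controls were high and those of the knockout aHFSC low. Those conditions differ in genotype, and some also in age, RU486 or slide. After the median of each gene over the 6 arrays of a state was taken off, the median of the list was 0.45 on control tHFSC and 0.33 on control aHFSC, in each case the highest of 6 conditions. On knockout tHFSC it was 0.18, rank 3 of 6 from the highest, and on knockout aHFSC -0.35, rank 5. The step from tHFSC to aHFSC had a list median of 0.94 in the knockout, with 34 of 43 genes higher in aHFSC. In the control it was 1.52 with 40 of 43, and in the other 4 conditions it ran from 1.45 to 2.25. The knockout thus had the smallest step of the 6 conditions by the list median, and 21 of 43 genes had their smallest step there, against 3 with their largest. How many of all rows had their smallest step there was not counted. By the number of genes higher in aHFSC, aged hCOL17A1 was lower than the knockout, with 32 of 43. Of all 31213 rows, 14164 were higher in aHFSC in the knockout, 14499 in the control and 12667 in aged hCOL17A1. Per gene, the test of this step against the other conditions called 0 rows (0.0%), and 1259 (4.03%) had an unadjusted p under 0.05. If the knockout aHFSC came from mice that were not plucked, genotype and plucking cannot be told apart in that state. The hCOL17A1 and aged aHFSC labels do not mention plucking either.

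**Figure D3:**
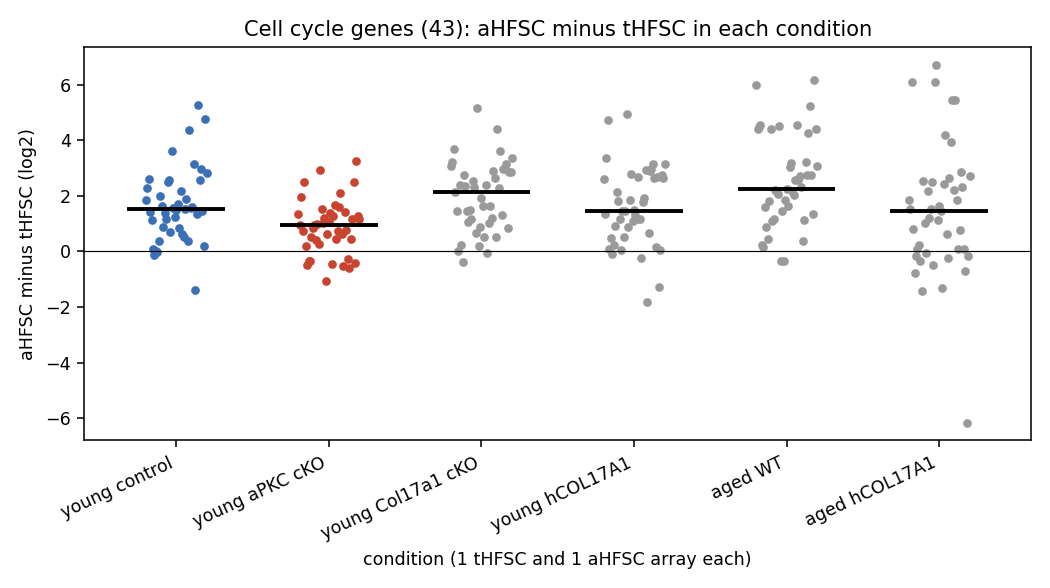
aHFSC minus tHFSC (log2) of 43 cell cycle genes in each of 6 conditions, 1 dot per gene, with the median as a bar. The median of the aPKC cKO, 0.94, is below that of the control, 1.52, and of the other 4 conditions.

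Inhibitors of the cycle did not mirror this pattern. Of 18 genes, 3 were higher and 6 lower in both states (28.9% and 23.7% of all rows), with medians of -0.35 in tHFSC and 0.13 in aHFSC. Cdkn1a, the inhibitor p21, was at -2.47 and -0.39 in the controls and at -0.22 and 1.86 in the knockout, 2.26 higher in tHFSC and 2.25 in aHFSC (2.25 ± 1.21, unadjusted p = 0.0957). Both knockout arrays lay above both controls, knockout tHFSC only narrowly. Its 2 other probes gave mean differences of 0.09 and 0.16, so the size rests on 1 probe.

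Transcripts of the upper follicle and sebaceous gland were mostly higher in the knockout, more so in tHFSC, though none passed. Of 14 genes, 9 were higher in both states and 2 lower in both, beside 28.9% and 23.7% of all rows. The medians were 1.31 in tHFSC, 0.29 in aHFSC and 0.84 over both, and 4 were higher at an unadjusted p under 0.05, as were 1.56% of all rows. Scd1, the stearoyl-CoA desaturase of sebocytes, was at 1.83 and 3.33 in the controls and at 4.55 and 3.74 in the knockout (1.56 ± 0.62, unadjusted p = 0.0332). Elovl3, a fatty acid elongase of sebaceous gland, was at -6.50 and -3.76 against 0.65 and 0.63, and of the 4 arrays compared only control tHFSC did not have it well above background. Cst6, the cystatin of the infundibulum, was at 2.81 and 3.00 against 4.70 and 3.81 (1.35 ± 0.42, unadjusted p = 0.0108). Gata6, a transcription factor of the junctional zone and sebaceous duct, was at -1.23 (filled) and -0.53 against 1.35 and -0.21. Both knockout arrays were above both controls for each of these 4 genes, and the tHFSC array made the larger part of the difference in each. The stem cell markers of the same region differed less in tHFSC: Lrig1 was at 2.68 and 3.41 against 2.52 and 3.42, and Lgr6 at 2.25 and 2.42 against 1.87 and 3.15. Lgr6 was lower in knockout tHFSC and higher in knockout aHFSC. Among the 6 conditions the list was highest in the knockout in both states, at 0.76 above the gene medians in tHFSC and 0.25 in aHFSC. By gene, Cst6 and Gata6 were highest in the knockout in each state. Scd1 was also high in young Col17a1 cKO (3.90 and 4.75) and young hCOL17A1 (4.31 and 3.59), and control tHFSC was its low young array. Elovl3 was at 1.03 on Col17a1 cKO aHFSC, above both knockout arrays. The list median was 0.43 without the knockout tHFSC array. Markers of the interfollicular epidermis stood higher beside it, with 8 of 10 higher in tHFSC, where 52.9% of all rows were, a list median of 0.85 there and 0.30 in aHFSC (over both 0.38, and -0.0046 without control tHFSC), and a summed level of 4.58 and 5.86 in the controls and 5.25 and 6.39 in the knockout. Krt1, a keratin of suprabasal epidermis, was at 1.25 and 4.52 against 3.38 and 5.21. It ran from 4.59 to 6.38 on the young Col17a1 cKO and hCOL17A1 HFSC arrays, so control tHFSC was the lowest young HFSC array. The part of these epidermis markers in the difference was not tested.

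**Figure D4:**
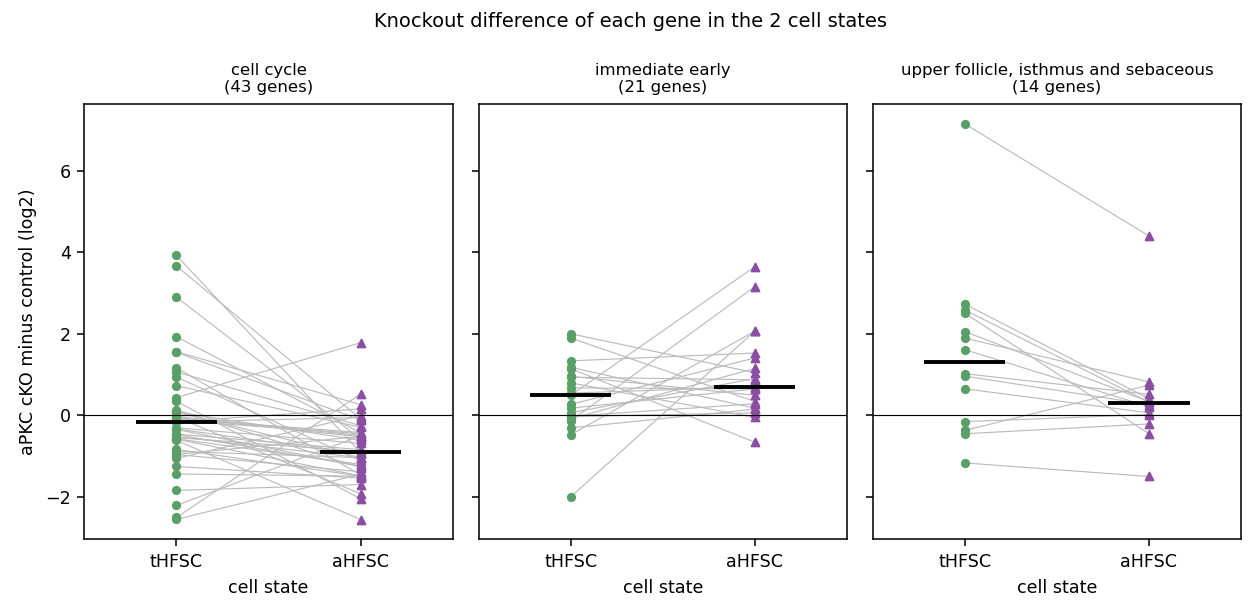
Knockout minus control (log2) of each measured gene of 3 lists in tHFSC (green circles) and aHFSC (purple triangles), with lines joining the values of a gene and bars at the medians. Cell cycle genes lie mostly below 0 in aHFSC, immediate early genes mostly above 0 in both states, and upper follicle genes highest in tHFSC, with medians of 1.31 and 0.29.

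Immediate early genes, which respond within minutes to growth factors and to stress, were mostly higher in the knockout in both states, though none passed. Of 21 genes, 12 were higher in both states (28.9% of all rows), 0 lower in both (23.7%) and 19 higher in aHFSC (52.3%), with medians of 0.49 and 0.70, and none passed. Fos was at 2.37 and 3.51 in the controls and at 3.70 and 5.03 in the knockout (1.43 ± 0.67). Fosb was at 2.92 and 5.05 against 4.92 and 6.09 (1.52 ± 0.79), with aHFSC above tHFSC in each genotype. Zfp36, which destabilises cytokine mRNAs, was at 2.50 and 3.20 against 3.43 and 4.07, and here both knockout arrays lay above both controls. Ier5 had the smallest p of the list, at -2.73 and -2.65 against -2.25 and 0.99 (unadjusted p = 0.0237), but its other probe gave -0.26. The control arrays were the lowest of the 6 conditions for this list in both states, at -0.41 and -0.63 from the gene medians, while the knockout arrays lay at -0.03 and 0.07, rank 3 of 6 from the highest in each. So the knockout was near the middle of the series, and the controls were at its lower end.

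The wound and stress keratinocyte list also had positive medians, 0.74 and 0.39, with 12 of 24 genes higher in both states (28.9% of all rows) and 5 lower in both (23.7%). Its genes with the largest differences stood low on control tHFSC. The wound keratin Krt16 was at -2.81 and 2.19 in the controls and at 1.15 and 3.28 in the knockout (2.53 ± 0.91, unadjusted p = 0.0220). The alarmin S100a9 was at -6.68 and 1.41 against -1.29 and 1.84. Its control tHFSC level lay below -4.65, the lowest level that counted as well above background on that array. Its fitted difference of 2.91 was 0.96 with normexp background. The gap junction gene Gjb6 was at -3.38 and 0.24 against -0.05 and 2.16. In Krt16, S100a9 and Gjb6 aHFSC exceeded tHFSC in both genotypes. Itga5, the fibronectin receptor subunit, went the other way, at 1.09 and -3.49 against -4.03 and -3.82, through 1 high control tHFSC value. Terminal differentiation genes had a median of -0.01 in tHFSC and 0.57 in aHFSC over 29 genes, with 21 higher in aHFSC, and none passed.

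Among Wnt genes a few members stood out of a list with a median near 0. Of 35 genes, 12 were higher and 9 lower in both states, beside 28.9% and 23.7% of all rows. The median was 0.07, and 4 were higher at an unadjusted p under 0.05, as were 1.56% of all rows. Apcdd1, a membrane inhibitor of Wnt signalling known from hereditary hair loss, was at -2.64 and -2.66 in the controls and at -0.70 and -0.91 in the knockout, 1.94 and 1.75 higher (1.84 ± 0.45, unadjusted p = 0.00292, adjusted p = 1). The 2 control values were close to each other, as were the 2 knockout values, and the groups did not overlap. Apcdd1 was near the knockout level in young Col17a1 cKO (-0.40 and -1.31) and young hCOL17A1 (-0.83 and -0.73). The controls were thus the 2 lowest young HFSC arrays for this gene. The aged HFSC arrays all lay below the knockout, the highest at -1.82 on aged wild-type tHFSC. Wnt10b, a ligand of hair growth onset, was at -1.24 and -1.40 against -0.40 and -0.70 (0.77 ± 0.30). Lef1, the transcription factor of the hair germ and matrix, was at -4.02 and -4.30 against -1.04 and -3.09, but its second probe gave -0.70. Dact1, an intracellular antagonist, was 2.55 higher in tHFSC (control filled) and 2.64 higher in aHFSC, where the control was not well above background, and its second probe gave 0.62. The general Wnt targets Axin2 (0.07 and -0.14 against 0.50 and -0.69) and Sp5 (-2.78 and -3.05 against -2.88 and -3.14) differed by -0.06 ± 0.45 and -0.10 ± 0.39.

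A pair of metabolic and stress lists had medians of opposite sign in the 2 cell states, with no member passing the test of that difference. Lipid and cholesterol synthesis genes had a median of 0.53 in tHFSC and -0.41 in aHFSC over 20 genes, with 14 higher in the first state and 5 in the second. Elovl6, a fatty acid elongase, was at 2.20 and 3.23 in the controls and at 4.67 and 3.13 in the knockout, and the lowest of the 4 values was that of control tHFSC. Genes of the unfolded protein and integrated stress response had medians of 0.38 and -0.59 over 16 genes. Asns, the asparagine synthetase, was at -0.14 and 1.23 in the controls and at 1.36 and 0.44 in the knockout, and Psat1, of serine synthesis, at 0.15 and 3.14 against 1.07 and 2.24. In the control aHFSC exceeded tHFSC for both genes, whereas in the knockout aHFSC was the lower state for Asns and the higher state for Psat1.

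**Figure D5:**
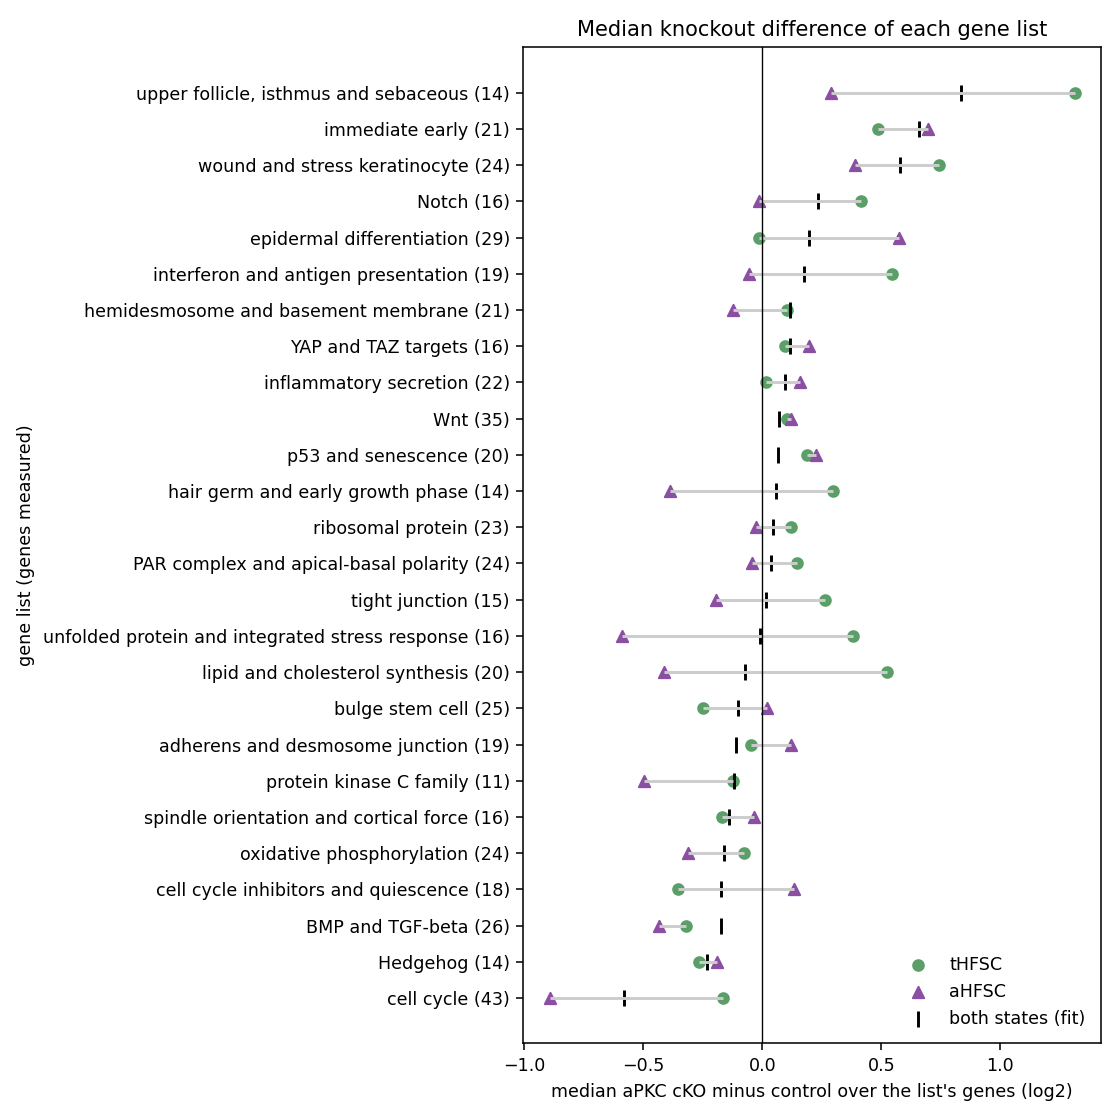
Median knockout minus control (log2) over the measured genes of each of 26 gene lists in tHFSC (green circles) and aHFSC (purple triangles), with the median of the fitted difference over both states as a black mark. The cell cycle list is lowest at -0.58 and the upper follicle list highest at 0.84; the other lists with medians beyond 0.5 on the fitted scale are immediate early and wound genes.

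Markers of most other cell types differed little between genotypes by their list medians over both states, though some stood at high levels. Melanocyte and mast cell markers differed between the states. Itgam of the myeloid list was between 7.99 and 8.23 on the 4 arrays. The summed level ran from 8.19 to 8.42 for the myeloid list, from 4.84 to 5.22 for Schwann cell and from 4.45 to 4.81 for fibroblast markers. Itgam alone made up most of the myeloid sum, so that sum says little about the rest of its list. List medians of the difference were near 0 for Langerhans and myeloid (median 0.12 over 13 genes), T cell (0.15, 9 genes), fibroblast (-0.08, 6 genes), endothelial (-0.01, 7 genes) and Schwann cell (0.08, 5 genes) markers, and the Langerhans marker Cd207 lay between -3.64 and -3.46 on all 4 arrays. Mast cell markers, 4 genes, had medians of 0.38 in tHFSC and -0.57 in aHFSC. Melanocyte markers had differences of both signs: of 9, 4 were lower and 2 higher in both states (23.7% and 28.9% of all rows). Their list median was 0.07 in tHFSC, -1.34 in aHFSC and -0.45 over both. The last was 0.36 when probes had to exceed background on all 16 arrays and 0.089 without control aHFSC. Their summed level was 2.20 and 2.56 in the controls and 2.25 and 1.80 in the knockout. Dct, a melanin enzyme of follicle melanoblasts, was at -0.10 and -0.54 in the controls and at -2.35 and -3.19 in the knockout (-2.44 ± 0.82, unadjusted p = 0.0156), and a second probe gave -1.87. Pmel, a melanosome protein, was at -1.20 and 1.39 against -3.03 and -2.87. Both genes were below both controls on both knockout arrays, while Tyr stood at -0.51 and -0.65 against -0.22 and -0.75, and Sox10 at -2.19 and -2.15 against -0.90 and -1.58. The melanocyte list was the highest of 6 conditions in the controls in both states.

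The genes with the largest difference in both states were mostly dim. Ranked by the smaller of the 2 differences among 13944 rows with an official symbol and signal well above background on all 4 arrays, the 12 highest were Oxld1, Angptl1, Smarca1, Serpina3n, Mtrf1, Slc26a2, Acoxl, Acrbp, Phf21b, Proca1, Ccdc93 and Cndp2. Since the ranking chose them, their differences are a description. Oxld1, a mitochondrial oxidoreductase-like protein, was at -3.93 and -3.22 in the controls and at 0.24 and 0.90 in the knockout, 4.17 and 4.12 higher, while the other 10 HFSC arrays, controls included, ran from -3.93 to 1.95. Acoxl, a peroxisomal acyl-CoA oxidase relative, was at -3.07 and -2.99 against 1.63 and -0.39, and a second probe gave a mean of 2.86 in the same direction. Smarca1, the chromatin remodeller SNF2L, was at -4.38 and -3.14 against -1.46 and -0.15. Serpina3n, a secreted protease inhibitor of the acute phase, was at -2.33 and -4.48 against 0.58 and -0.72. A further probe had a mean of the opposite sign for Proca1 (-0.88), Ccdc93 (-2.69) and Cndp2 (-0.54). The 2 other Acrbp probes gave -0.30 and 0.046, that of Angptl1 0.02 and that of Smarca1 0.87, each well below the probe used. Oxld1, Serpina3n, Mtrf1, Slc26a2 and Phf21b rest on a single probe.

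The 12 lowest by the same ranking were Fkbp1b, Map2k7, Cyb5rl, Zfp449, Slc16a9, Abi2, Sulf1, Zfp777, Rrp12, Dcaf12l1, Atg2a and 4933424G05Rik. Fkbp1b, an immunophilin that binds ryanodine receptors, was at -0.34 and -0.79 in the controls and at -3.99 and -3.81 in the knockout, 3.64 and 3.02 lower. Its second probe was lower only in aHFSC, with 0.25 in tHFSC and -4.07 in aHFSC. Map2k7, the kinase that activates JNK, was at 0.29 and -0.99 against -3.02 and -3.80. Abi2, of the actin-regulating WAVE complex, was at 0.38 and 0.12 against -2.19 and -3.13. Its second probe gave 0.93 in tHFSC and -3.42 in aHFSC. The second probe of Slc16a9 gave 1.72 in tHFSC and -1.59 in aHFSC, and that of Sulf1 0.61 and -2.12. Sulf1, a heparan sulfate endosulfatase, was at 1.46 and 1.55 against -1.60 and -0.96. Only Cyb5rl of these 12 lay below all other 10 HFSC arrays on both knockout arrays, and its second probe gave -0.98 in tHFSC and 3.32 in aHFSC.

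Genes measured in only 1 genotype were few. Among 17062 rows with an official symbol and a flag on all 4 arrays, in 148 the probe was well above background on both knockout arrays and on neither control array, and in 116 the reverse held. The bounds below set the mean of the bright genotype against the mean of the dim one, with each dim array entered at its own level or at the lowest signal that counts as above background there, whichever was higher. Arl5c, an ARF-like GTPase, was at -1.46 and -1.13 in the controls and not well above background at -4.85 and -5.11 in the knockout, so by this probe it was at least 12.8-fold lower (adjusted p = 0.233). A second Arl5c probe, with no value here for control tHFSC, was at -2.46 on control aHFSC and at -2.65 and -2.33 in the knockout, a difference of 0.13 in aHFSC, so the probes disagree. Sycp1, a synaptonemal complex protein of meiosis, was at -0.91 and -0.69 against -6.51 and -6.75, at least 26.7-fold lower. Akap5, a scaffold that ties protein kinase A and PKC to the membrane, was at least 11.9-fold lower. In the other direction Dusp26, a phosphatase, was at least 8.05-fold higher and the retinaldehyde dehydrogenase relative Aldh1a7 at least 5.40-fold higher. These bounds hold only for the background correction used here. With normexp background the fitted log2 differences fell short of them. They were -1.31 for Arl5c, -1.795 for Sycp1, -1.23 for Akap5, 1.21 for Dusp26 and 1.03 for Aldh1a7. For Arl5c the controls were the 2 brightest of the 12 HFSC arrays, and the median over the 10 arrays other than the knockout was -4.87. For Sycp1 that median was -6.18, and young Col17a1 cKO tHFSC, at -0.75, was as bright as the controls.

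Genes with opposite differences in the 2 states were again dim for the most part. Ranked by the difference between states, the 6 highest were Bsn, Gm10638, Polr3b, Thsd4, 1500002F19Rik and Vps37c, and the 6 lowest Gprc5c, Pdzd2, Xlr4a, Hoxa4, Tmem94 and Tent4a. Gprc5c, an orphan receptor of the retinoic acid inducible group, was at -0.92 and 1.80 in the controls and at 1.41 and -2.96 in the knockout (-7.10 ± 1.30, adjusted p = 0.967). Vps37c, of the ESCRT machinery that sorts membrane proteins, was at 1.02 and 0.30 against -3.57 and 1.83 (6.13 ± 0.88, adjusted p = 0.815). In each of these 2 genes 1 knockout array was the low value of the 4.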

How the data were processed

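RNA of sorted HFSC and interfollicular epidermis had been hybridised to 16 one-colour Agilent arrays (mm9 annotation, Feature Extraction 11.5.1.1, per the file headers). The deposited intensity used is the authors' processed signal, background-corrected by the scanner software per the file headers. The deposited value table holds log2 values that closely match this signal's log2 after subtraction of the array's 75th percentile. On control tHFSC the match was looser, with a high-end residual of 0.070 against about 0.005 on the other arrays. Here log2 of the signal minus each array's 75th percentile was used. For control tHFSC, whose file ends early, the median offset from the value table stood in for that percentile. Control spots and outlier flags were left out, a probe had to be well above background on 2 or more arrays, and the probe with the highest mean stood for a gene. Probes were named by RefSeq accession (28348), symbol (3195) or synonym (271), and 23867 kept the name in the file. limma 3.58.1 (R 4.3.3) fitted all 16 arrays with 6 HFSC conditions, a common cell state term and terms for the epidermis arrays; further fits added state terms for the control and the knockout, or for the knockout. P-values were adjusted by Benjamini-Hochberg over 31213 gene rows at 0.05. With 1 array per group there is no spread between replicates, and the labels do not state that arrays are separate animals. The p-values rest on how far arrays depart from the additive fit of condition and cell state. Technical noise and true differences in the state step between conditions both enter that spread. The number of arrays limits the precision. The script was tested on simulated data. Named genes were the 12 highest and 12 lowest by the smaller of the 2 state differences, the 6 at each end by the difference between states, up to 4 per direction by bound, up to 4 per list by p, and Prkci, Prkcz, Col17a1, Krt15, Cd34, Itga6 and Ly6a; other list members were named for their role after their values were seen. Members and lists were chosen with earlier results of these data known. Promoters came from RefSeq (GRCm38.p6). The alternatives changed the background correction, scaling, filter, probe rule, the arrays fitted, the state term and the variance trend, and left out each array.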

Additional observations from a re-analysis of the deposited data

Results flagged for a closer look

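In 4 gene lists the knockout arrays stood above the control in tHFSC and below it in aHFSC by the list median, with each median at least 0.25 log2 units from 0. In the list of unfolded protein and integrated stress response genes the medians were 0.38 and -0.59, and the median difference between states was -1.10. For lipid and cholesterol synthesis the medians were 0.53 and -0.41, and the difference -1.10. For the hair germ and early growth phase list, 14 genes, they were 0.30 and -0.39, and the difference -0.79. For mast cell markers, of which 4 of 7 were measured, they were 0.38 and -0.57, and the difference -0.76. The difference was not tested at the level of the list; per gene, limma called 0 rows for it, with 1167 at an unadjusted p under 0.05.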

How the results depend on the processing

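The count of 0 genes called for knockout against control was 1 with normexp background, 3 with eBayes without a trend, and ran from 0 to 1 when each of the 4 arrays was left out, the 1 without control aHFSC. Arl5c was called in the first of these settings and again in the second, beside P2ry6 and Snap91. The test of the state step gave 9 with the deposited value table, and the test between states 0 wherever it could be fitted. Rows at least 2-fold higher in both states numbered 145 with normexp and 197 when probes had to exceed background on all 16 arrays, and those lower 131 and 249. Prkci ran from -1.17 to -0.73 over 18 alternatives, and never passed.

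Of 91 other gene differences followed, 81 had no change of sign. With each of the 4 arrays left out in turn, the sign changed for Prkcz (-1.08 to 0.22), Pard3 (-0.97 to 0.0603), Tbx1 (-0.19 to 0.10), Itga6 (-0.25 to 0.0455, and 0.0403 for the other tHFSC array), Ly6a (-0.65 to 1.24), Col17a1 (-0.0176 to 0.30), Bmp6 (-0.97 to 1.06, with -0.83 without control aHFSC), Mki67 (-1.66 to 0.0818) and Ccna2 (-1.93 to 0.14). Itga6 gave 0.19 as the mean of its probes, and Proca1 -0.88 under the strict filter. Of 666 list medians under alternatives, 93 differed from the reported one by more than the SD of the 2 states. The hair germ medians were -0.14 in tHFSC and 0.08 in aHFSC with only probes held in all 16 scanner files. The melanocyte median of -0.45 was 0.36 under the strict filter. The lipid and stress response lists kept opposite signs under each scaling, filter and probe rule.

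Of 92 named genes 33 had a further probe past the filter with values on all 4 arrays, and 12 of these had one with a mean of the opposite sign. The arrays were paired by cell state through the state term of the fit, and without that term the count called was 0. The labels carry no replicate numbers by which to pair them otherwise.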

Other observations

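Integrin and laminin genes of the hemidesmosome, by which basal cells hold to the basement membrane, were measured at high levels in both genotypes. Itgb4, the β4 integrin subunit, was at 3.67 and 3.27 in the controls and at 4.54 and 3.81 in the knockout, above both controls on both knockout arrays (0.70 ± 0.34, unadjusted p = 0.0669). Frem2, a basement membrane adhesion protein, was at 1.28 and 2.47 against 2.11 and 3.01. Itgb1, the β1 subunit, lay the other way at 2.75 and 2.16 against 2.12 and 1.48. Col17a1, collagen XVII of the hemidesmosome, was at 7.02 and 6.17 in the controls, and the knockout differed by -0.012 in tHFSC and 0.29 in aHFSC. Of the 21 genes of the list 6 were higher and 4 lower in both states (28.9% and 23.7% of all rows), the median was 0.12, and none passed.

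Hedgehog genes had a median of -0.23, with 7 of 14 lower and 2 higher in both states, beside 23.7% and 28.9% of all rows, and a median of 0.026 without control tHFSC. BMP and TGF-beta genes had medians of -0.32 in tHFSC and -0.44 in aHFSC, with 9 of 26 lower and 3 higher in both. Genes of oxidative phosphorylation had 11 of 24 lower and 3 higher in both states, with a median of -0.16, and ribosomal protein genes a median of 0.05 over 23. None of these passed.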
